A study of Mus musculus with 4 samples.

Results

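Principal 8 was 1 of several populations of principal cells found mostly in the cauda, the distal end of the epididymis. It comes from a single-cell survey of the mouse male reproductive tract. Its cells were taken as the 516 cells that carried 1 value of the deposited cell type annotation, out of 8880 annotated cells. The deposited name holds the number 4 rather than 8, since the annotation numbers its populations differently from the study, which places this population in the proximal cauda. Of the 516 cells, 486 came from the Cauda library, 22 from the Corpus library, 8 from the Vas library and 0 from the Caput library. Male FVB/NJ mice, 10 to 12 weeks old, were dissected into caput, corpus and cauda epididymis and vas deferens, and 8 pieces of tissue from 4 mice were pooled into 1 library for each region. Each region was therefore measured once, mouse-to-mouse spread was not measured, and the populations had been clustered on these same counts. For these reasons no difference was tested, and every interval given here is a 95% interval that covers counting error only.

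Principal cells are the main secretory and absorptive cells of the pseudostratified epithelium that lines the epididymal duct. They change the fluid around passing sperm by secreting antimicrobial beta-defensins, protease inhibitors and sperm-binding proteins, and their transcripts change from segment to segment. The cauda stores sperm that have matured upstream, and its epithelium also holds basal cells, which sit under the principal cells, and clear cells, which acidify the lumen.

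The 486 Cauda cells of principal 8 held 815491 UMIs (unique molecular identifiers, each a counted transcript), with a median of 688.5 UMIs per cell, a range of 235 to 14309, and a median of 291.5 detected genes. The other principal cells of the cauda in the same library, called principal 9, 10 and 11 by the study, numbered 100, 166 and 141 cells and held 260244, 341114 and 254374 UMIs. Together these 407 cells held 855732 UMIs, nearly the same total as principal 8, at a higher median of 1297 UMIs per cell. Only 184 of the 486 principal 8 cells reached 1000 UMIs, and these 184 held 81.8% of the UMIs of principal 8. The authors' removal of ambient RNA had taken 6.36% of the UMIs of principal 8 and 5.12% of those of the other cells. A barcode was shared by at least 2 libraries in 43 cases, and 3 cells of principal 8 carried such a barcode. A doublet caller marked 21 cells of the Cauda library (1.30%), 5 of them in principal 8, and recovered 41.6% of simulated doublets.

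Levels are given as UPM, the UMIs of a gene per 1000000 UMIs summed over all cells of a group. Since the counts came from the 3′ ends of transcripts, they were not divided by transcript length. All comparisons below are within the Cauda library unless another library is named, and a gene was called higher or lower when it differed at least 2-fold and had at least 20 UMIs in the higher group.

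Promoter sequences are shown for Klk1b27 and Gpx3, 2 of the genes that the study lists for segments 8 to 9 of the cauda. Crisp1 is shown as the gene of largest difference in level between principal 8 and the other cauda principal cells. The sequences came from RefSeq on GRCm38.p6, run 5′ to 3′ on the strand of the gene, and cover 250 bases before and 50 bases from the transcription start. Klk1b27, a serine protease of the tissue kallikrein family, lies on chromosome 7 and its promoter was read at chr7:44052040-44052339 on the plus strand. Gpx3, the secreted glutathione peroxidase, was read at chr11:54902604-54902903 on the plus strand. Crisp1, a cysteine-rich secretory protein that coats sperm, was read at chr17:40319158-40319457 on the minus strand. Capitals mark AGAACA, or TGTTCT as its other strand, the hexamer that the androgen receptor recognises, and TATAAA.
Klk1b27: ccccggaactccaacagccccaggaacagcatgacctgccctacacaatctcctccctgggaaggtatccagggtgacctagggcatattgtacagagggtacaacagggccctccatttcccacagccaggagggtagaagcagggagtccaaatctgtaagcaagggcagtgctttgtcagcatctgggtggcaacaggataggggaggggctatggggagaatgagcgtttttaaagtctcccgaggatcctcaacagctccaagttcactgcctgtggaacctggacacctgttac
Gpx3: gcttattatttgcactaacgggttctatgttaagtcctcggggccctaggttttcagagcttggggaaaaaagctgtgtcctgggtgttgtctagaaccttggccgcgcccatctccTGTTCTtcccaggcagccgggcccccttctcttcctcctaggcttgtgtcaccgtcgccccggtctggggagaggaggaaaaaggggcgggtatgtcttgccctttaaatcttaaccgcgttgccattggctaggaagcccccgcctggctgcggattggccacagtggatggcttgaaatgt
Crisp1: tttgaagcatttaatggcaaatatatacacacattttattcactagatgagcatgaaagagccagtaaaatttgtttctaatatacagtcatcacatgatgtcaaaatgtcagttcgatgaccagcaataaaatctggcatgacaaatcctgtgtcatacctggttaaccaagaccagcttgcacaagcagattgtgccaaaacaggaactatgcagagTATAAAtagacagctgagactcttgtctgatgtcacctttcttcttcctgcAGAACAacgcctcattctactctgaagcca
AGAACA was searched on both strands and TATAAA on the strand of the gene, and the Klk1b27 window held neither. The Gpx3 window held TGTTCT at base 118. The Crisp1 window held TATAAA at base 220 and AGAACA at base 271. Among 32851 promoters of the same length, 19.0% held AGAACA or TGTTCT and 8.32% held TATAAA. The matches describe the letters of these windows only.

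The 3 genes taken here as markers of the population, Klk1b27, Gpx3 and Defb2, were not alike in how closely they followed it. Klk1b27 had 83 UMIs in principal 8 and 24 in the other cauda principal cells, which is 102 UPM (81.1 to 126) against 28.0 UPM (18.0 to 41.7). Principal 9, 10 and 11 stood at 34.6, 20.5 and 31.4 UPM, all below the interval of principal 8. The ratio was 3.63 (2.28 to 5.98). Klk1b27 was also the only gene, of 4251 with at least 20 UMIs in principal 8, whose level over all libraries was at least 2 times that of every other of the 15 principal populations (0.0235%), and that ratio was 2.48. Its gene family has near-identical members, among them Klk1b26, which over all libraries stood at 46.3 UPM in principal 8 and 33.2 UPM in principal 11, and since the authors' counting ignored reads that match several places, levels of these genes may be too low and are uncertain. Gpx3, which reduces peroxides in the luminal fluid, stood at 5662 UPM in principal 8 and 5249 UPM in the others, a ratio of 1.08 (1.04 to 1.12). Its levels in principal 8, 10 and 11 were within 1.01-fold of each other. Defb2, a beta-defensin, stood at 11263 UPM against 8553 UPM, a ratio of 1.32 (1.28 to 1.36), and principal 10 was within 1.06-fold of principal 8. Gpx3 and Defb2 were thus abundant in principal 8 but nearly as abundant in principal 10, while Klk1b27 followed principal 8 more closely at a low level. Klk1b27 and Gpx3 are among 4 genes that the study lists for segments 8 to 9 of the cauda, with Hint1 and Gstm2. Over all libraries Hint1 was highest in principal 9, at 1214 UPM, against 809 UPM in principal 8. Gstm2 was highest in principal 15, at 847 UPM, against 445 UPM in principal 8. The study assigned segments by comparison with an earlier microarray study. Since the populations were clustered on these same counts, the pattern of these genes describes the population and is no independent evidence for its name.

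**Figure D1:**
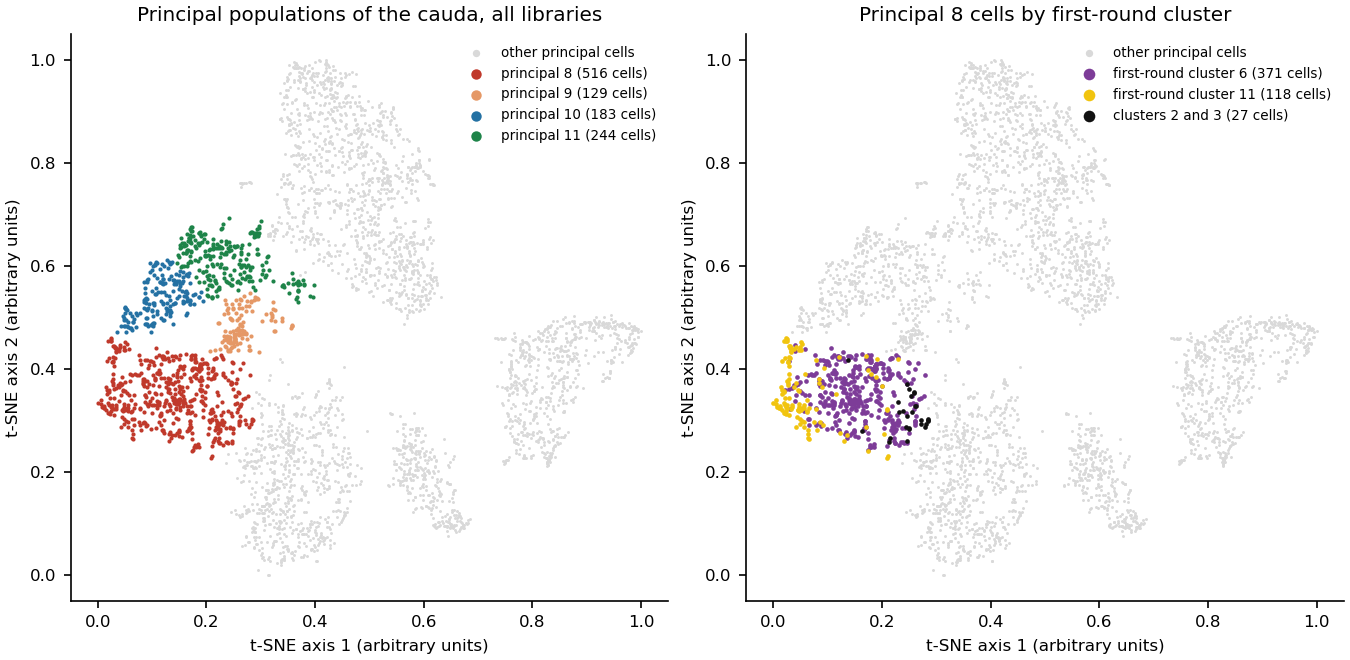
Deposited t-SNE coordinates (arbitrary units) of the principal cells of all 4 libraries, with principal 8, 9, 10 and 11 coloured on the left, and the cells of principal 8 coloured by first-round cluster on the right, where all other principal cells are grey. The 516 cells of principal 8 form 1 area beside the 129, 183 and 244 cells of principal 9, 10 and 11, and its 118 cells of cluster 11 lie mostly along the edge near principal 10, while its 371 cells of cluster 6 fill the middle.

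At a matched depth the shares of cells with a UMI showed the same order. For this, UMIs were drawn at random from each cell down to 1000, which left out 302 shallower cells of principal 8 and 173 of the others. Klk1b27 then had a UMI in 17 of 184 principal 8 cells, or 9.24% (5.47 to 14.4), and in 7 of 234 other cells, or 2.99% (1.21 to 6.07). In stromal cells, which should lack it, it had a UMI in 0 of 231 cells, and the share could still be as high as 1.30%. Basal and clear cells had it in 0.588% and 1.09%. Without thinning the Klk1b27 shares were 12.3% of principal 8 and 5.65% of the other cells. Gpx3 was seen in 95.1% of the principal 8 cells at this depth and 89.7% of the others, against 6.49% of stromal, 7.65% of basal and 32.6% of clear cells. Defb2 was seen in 97.8% and 96.6%, against 2.60% of stromal, 4.71% of basal and 7.61% of clear cells. These cells were deeper before thinning, with medians of 3927, 5360 and 5796 UMIs. The unthinned shares were 60.7% for Gpx3 and 78.6% for Defb2 in principal 8, and 67.3% and 76.4% in the other cells.

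Along the duct, principal 8 lay at a changeover of secreted products. These levels were taken over all cells of each population in all 4 libraries, in the study's order from principal 6 and 7, mostly corpus cells, through principal 8 to principal 9, 10 and 11, so population and library cannot be told apart between corpus and cauda. Npy, neuropeptide Y, went from 4444 UPM in principal 6 and 3151 in principal 7 to 465 in principal 8, and to 115, 241 and 8.29 in principal 9, 10 and 11. Defb22, a beta-defensin of the sperm coat, went from 15492 and 6503 UPM in principal 6 and 7 to 112 UPM in principal 8. Of its 94 UMIs in principal 8, however, 67 came from the 22 Corpus cells, and its level in the Cauda cells alone was 33.1 UPM. Wfdc13, a small secreted protein with a WFDC domain, went from 3200 UPM in principal 7 to 332 UPM in principal 8 and 22.9 UPM in principal 9. These genes were thus low in principal 8 beside the corpus populations and higher in it than in each of principal 9, 10 and 11. Defb2 changed the other way, from 854 UPM in principal 7 to 11030 UPM in principal 8. Defb40 and Spint3, a beta-defensin and a Kunitz-type protease inhibitor, had their highest levels of these 6 populations in principal 8, at 2694 and 2675 UPM. Crisp1 was lowest in principal 7, at 33156 UPM, and stood at 48015 UPM in principal 8 and 195180 UPM in principal 11.

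**Figure D2:**
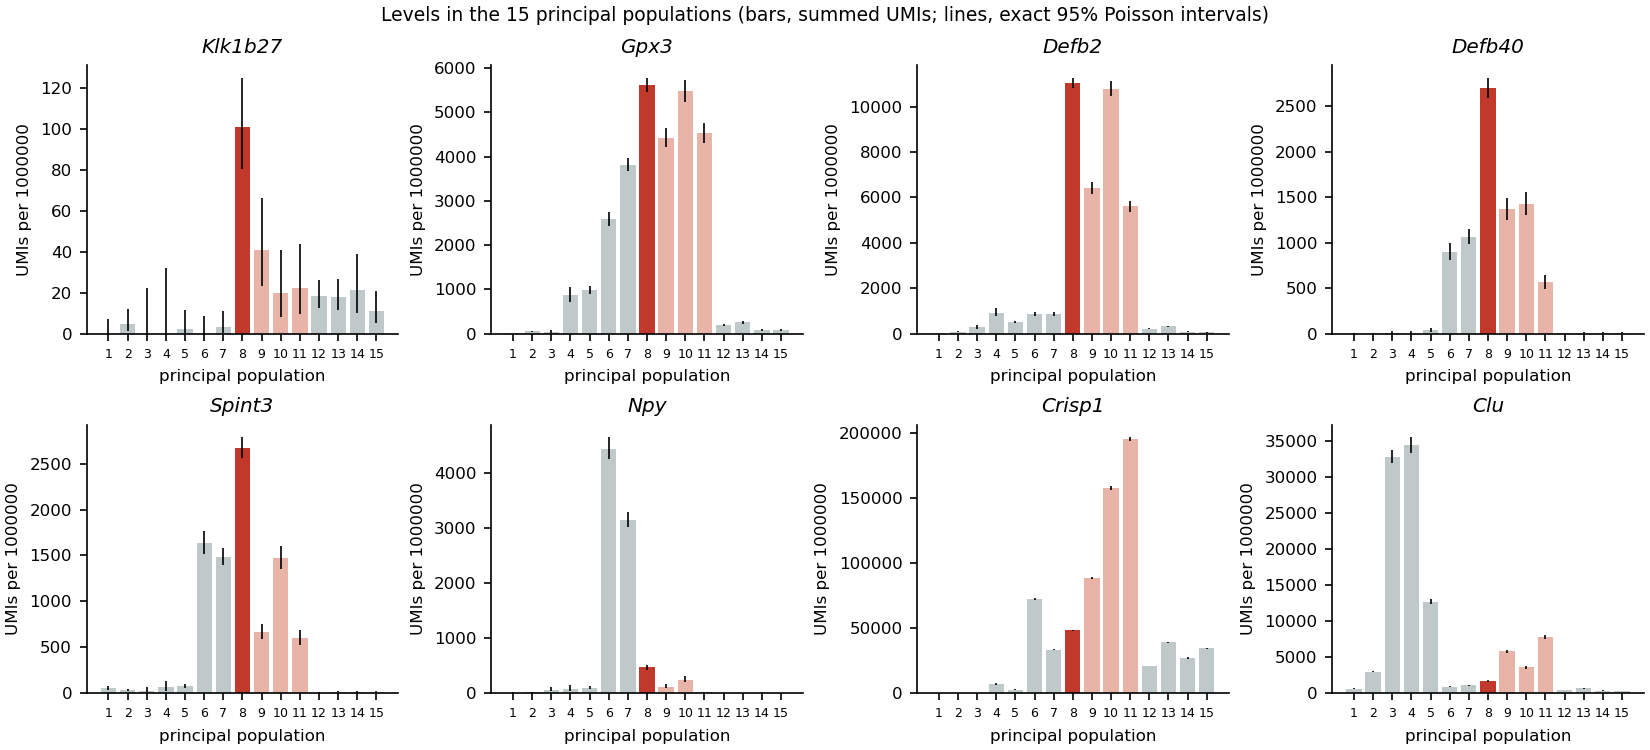
Levels of 8 genes (y axes, UMIs per 1000000, from 0) in the 15 principal populations (x axes, in the study's order) over all 4 libraries, with principal 8 in dark red, principal 9, 10 and 11 in light red, and lines for exact 95% Poisson intervals. Klk1b27, Defb40 and Spint3 have their highest bar in principal 8, Gpx3 and Defb2 are about as high in principal 10, Npy is higher in principal 6 and 7 than in principal 8, and Crisp1 is higher in each of principal 9, 10 and 11 than in principal 8.

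Of the 15 principal populations, principal 8 was the highest for 108 of the 4251 genes, but by at least 1.5-fold for only 8 of them. In rank correlation of levels over 5249 genes, principal 9 was the most like it (Spearman's rho 0.88), followed by principal 11 (0.836), principal 7 (0.818) and principal 10 (0.806). These correlations describe single pooled profiles whose libraries and depths differ.

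Leaving out ribosomal protein genes, of which 5 were among the 20 highest and the first, Rpl41, stood at 14717 UPM, the transcripts of highest level in principal 8 were mostly secreted or surface products. Cd52, a glycoprotein that is passed from the epithelium to sperm, stood at 53813 UPM and Crisp1 at 47852 UPM. The Kazal-type inhibitor Spink8 stood at 32963 UPM, and the WFDC-domain genes Wfdc10 and Wfdc15b at 25952 and 14124 UPM. Among beta-defensins, Defb28 had the highest level, at 21864 UPM, followed by Defb2. Ptgds, a lipocalin that makes prostaglandin D, stood at 12079 UPM. Itm2b, B2m, D730048I06Rik, Spink10, Gpx3 and the cytosolic metallothionein Mt1 followed, between 10467 and 5096 UPM. The 10 highest genes of principal 8, Rpl41 included, took 24.5% of its UMIs, and its 20 highest took 30.5%. The other cauda principal cells, ranked by their own levels, had 35.2% and 41.2% in their 10 and 20 highest genes.

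Against the pooled principal 9, 10 and 11 cells, 240 of 4594 genes with enough UMIs were higher in principal 8 (5.22%) and 174 were lower (3.79%), with a median ratio of 1.08 over all tested genes. Part of this split rests on the scale. Taking the 25 genes that were among the 20 highest of either group out of the totals multiplied every ratio by 0.845 (-0.24 on the log2 scale), and 90 genes were then higher and 387 lower.

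**Figure D3:**
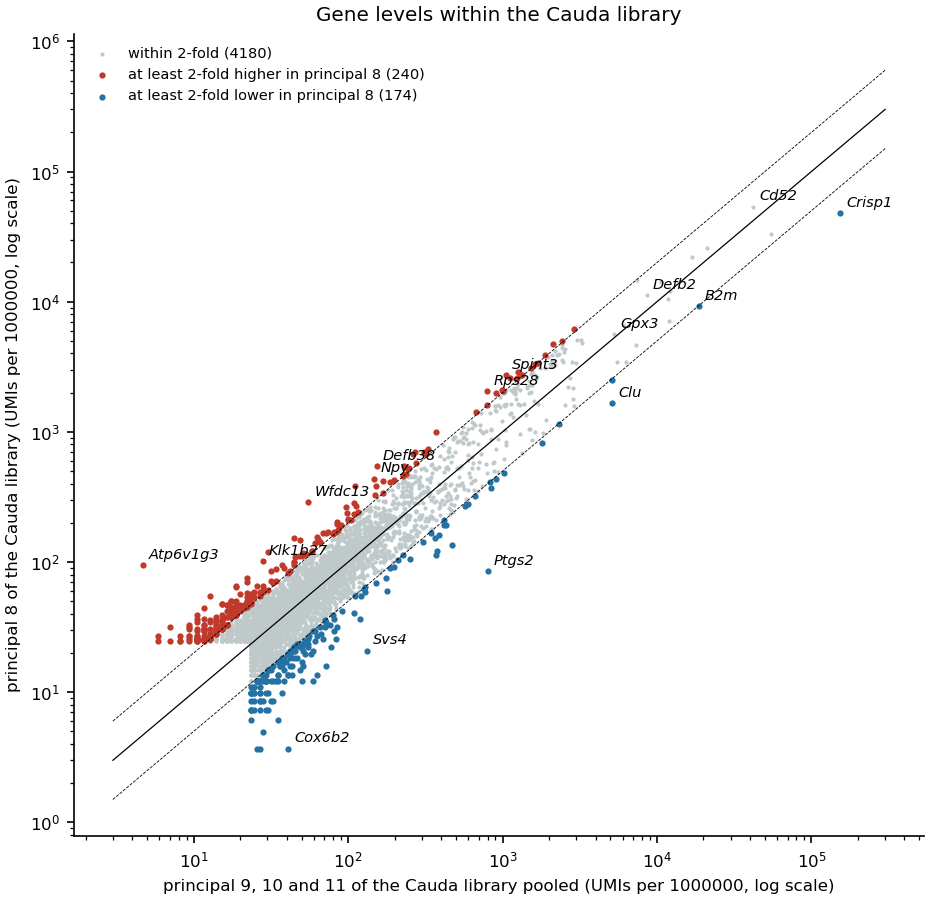
Level of each tested gene in the pooled principal 9, 10 and 11 cells (x axis) and in principal 8 (y axis) of the Cauda library, both in UMIs per 1000000 on log axes, with the solid line at equal levels and dashed lines at 2-fold. The 240 higher genes (red) reach their extreme at Atp6v1g3, and the 174 lower genes (blue) include Ptgs2, Clu and Crisp1.

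Beta-defensins, small cationic peptides of which many coat sperm, took a larger share of UMIs in principal 8 than in the pooled others. They took 4.60% of the UMIs of principal 8 and 3.49% of those of the others, a ratio of 1.32 (1.30 to 1.34), and 3.22%, 4.32% and 2.66% in principal 9, 10 and 11. The share in principal 10 was thus near that of principal 8. Taking the highest genes out of the totals multiplies the ratio of 1.32, like every other, by 0.845. Of 40 beta-defensin genes listed, 18 were tested, with a median ratio of 1.45, and 5 were higher and 0 lower. Over all tested genes, the shares were 5.22% and 3.79%. Defb38 stood at 542 UPM (493 to 595) in principal 8 and 153 UPM (128 to 182) in the others, a ratio of 3.54, with 196, 211 and 31.5 UPM in principal 9, 10 and 11. Defb37 stood at 384 against 111 UPM, a ratio of 3.46. Defb40 stood at 2757 UPM (2644 to 2873) against 1322 UPM (1246 to 1401), a ratio of 2.09. The other called members were Defb6, at 47.8 against 15.2 UPM, and Defb22, with only 27 UMIs against 8. The levels of Defb38, Defb37, Defb40, Defb6 and Defb2 in principal 8 were each above those of all 3 populations taken alone, by between 1.06-fold for Defb2 over principal 10 and 17.2-fold for Defb38 over principal 11.

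Protease inhibitors were divided. Spint3 stood at 2720 UPM (2608 to 2835) against 1047 UPM (980 to 1118), a ratio of 2.60, and was 3.83-fold, 1.82-fold and 3.46-fold above principal 9, 10 and 11. Wfdc13 stood at 289 UPM (254 to 329) against 54.9 UPM (40.4 to 73.0), a ratio of 5.27. These were the only called members of the Kazal and Kunitz list and of the WFDC list, and 0 members of either were lower. The 20 listed WFDC genes took 4.31% of UMIs against 3.42% and the 16 Kazal and Kunitz genes 4.60% against 6.51%, with median ratios of 1.22 over 9 tested and 1.03 over 10 tested. The 38 serpins took 0.429% against 0.780%, with 1 of 3 tested members lower, the complement inhibitor Serping1, at 267 against 573 UPM.

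Sperm-binding and glycan-processing secreted proteins took a smaller share of UMIs in principal 8, and this rested on Crisp1. The list took 11.5% of the UMIs of principal 8 and 21.5% of the others, and 13.5%, 23.6% and 26.9% in principal 9, 10 and 11. Of 18 tested, 1 was higher and 3 were lower, with a median ratio of 0.802. Without Crisp1 the list took 6.72% against 6.21% of all UMIs, a ratio of 1.08 (1.07 to 1.10). Crisp1 stayed in these totals, and its larger share in the other cells raised that ratio, so no excess is read from it. Cd52, the member of highest level in principal 8, stood at 53813 against 41846 UPM. Against principal 9 alone, 8 of the 18 members were higher and 1 was lower, beside 14% and 1.59% of all genes tested against it. Principal 8 held more UMIs than principal 9, so a gene passed the minimum more easily on its side. Crisp1 stood at 47852 UPM (47379 to 48329) against 152715 UPM (151888 to 153545), 3.19-fold lower in principal 8. Clu, which encodes the extracellular chaperone clusterin, stood at 1658 UPM against 5149 UPM, 3.11-fold lower. Against principal 9, 10 and 11 in turn, the ratios of Crisp1 were 0.535, 0.304 and 0.226 and those of Clu 0.318, 0.478 and 0.226. The higher member was Bsph2, a seminal plasma protein homologue that binds sperm, at 191 against 90.0 UPM.

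Among genes with at least 20 UMIs on both sides, the lowest ratio was that of Ptgs2, the inducible cyclooxygenase of prostaglandin synthesis. It stood at 84.6 UPM (65.8 to 107) in principal 8 and 800 UPM (742 to 863) in the others, 9.46-fold lower (7.38 to 12.3), and was 3.82-fold, 11.1-fold and 13.0-fold below principal 9, 10 and 11. Of the 15 tested genes of prostaglandin synthesis and transport, 3 were lower, Ptgs2, Akr1b7 and Pla2g16, and 0 higher, with a median ratio of 0.767, and the list as a whole took 1.37% against 1.49% of UMIs, most of it Ptgds. Svs4, best known as a seminal vesicle secretory protein, stood at 20.8 UPM against 132 UPM. Cyp4a12a, an androgen-regulated fatty acid hydroxylase, stood at 135 UPM against 467 UPM. S100a8, a subunit of the antimicrobial calprotectin complex, stood at 123 UPM against 374 UPM, and its level in the others came mostly from principal 9, at 861 UPM. Cox6b2, a testis isoform of a cytochrome c oxidase subunit, had 3 UMIs in principal 8 and 35 in the others, all of them in principal 9.

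Lists of cell junctions, antigen presentation and the endoplasmic reticulum took smaller shares of UMIs in principal 8 than in principal 10 and 11. In principal 9 the antigen presentation and endoplasmic reticulum shares were smaller still, at 0.816% and 1.55%, while the junction share was 0.612%. Over all tested genes, 5.22% were higher and 3.79% lower than in the pooled others. Of 18 tested junction and keratin genes, 0 were higher and 5 were lower, with a median ratio of 0.658 and 0.454% of UMIs against 0.743%. Epcam, a homophilic adhesion molecule, stood at 814 UPM against 1788 UPM, Cldn4, a claudin of tight junctions, at 281 against 597 UPM, and Cldn8 at 105 against 251 UPM. For each of the 5 called members, Epcam, Cldn4, Cldn8, Cldn1 and the tight junction scaffold Tjp1, the level in principal 9 was the nearest to that of principal 8. The antigen presentation and interferon list took 1.05% against 2.04% of UMIs, with 2 of 7 tested members, B2m and the immunoproteasome subunit Psmb8, lower, a median ratio of 0.744 and 3 of the 7 ratios above 1. B2m, the light chain of class I molecules, made up most of the share of this list in both groups. It stood at 9206 UPM against 18619 UPM, but was 1.24-fold higher in principal 8 than in principal 9. Of 39 tested genes of endoplasmic reticulum folding and secretion, 1 was higher and 2 were lower, shares near those over all genes, with a median ratio of 0.720 and 1.65% of UMIs against 2.35%. The lower genes were the chaperone Hspa5, at 2506 against 5118 UPM, and its cochaperone Dnajb9, at 408 against 834 UPM, and the higher gene was the translocon subunit Sec61b, at 418 against 169 UPM.

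Genes of the translation and respiration machinery took larger shares in principal 8 than in principal 10 and 11, and smaller shares than in principal 9. Cytosolic ribosomal proteins took 18.7% of the UMIs of principal 8 and 10.4% of those of the others, a ratio of 1.80, with 15 of 79 tested members higher, 0 lower and a median ratio of 1.76. They took 21.3%, 5.05% and 6.59% in principal 9, 10 and 11, and against principal 9 alone 0 of the 79 were higher and 1 was lower. Of all genes tested against principal 9, 14% were higher and 1.59% lower. Nuclear-encoded mitochondrial proteins of the respiratory chain and ribosome took 3.12% against 2.08%, with 14 of 132 tested members higher, 1 lower, Cox6b2, and a median ratio of 1.42, and they took 3.61% in principal 9. Immediate-early and heat-shock genes, which tissue dissociation is known to induce, took 1.16% against 0.797%, with 7 of 26 tested higher, 0 lower and a median ratio of 1.48. Among them the transcription factors Jun, Egr1 and Fos had ratios of 2.69, 2.36 and 2.07, and the heat-shock chaperones Hspa1a, Hspa1b and Hsph1 had 2.22, 2.55 and 2.35. The last called member was Zfp36, which destabilises messenger RNAs, at 2.41. The part of dissociation in these values was not tested.

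Other lists held small numbers of called members, beside 5.22% of all tested genes higher and 3.79% lower. Kallikreins took 0.0161% against 0.00608% of UMIs, with 1 of 2 tested members, Klk1b27, higher. Glutathione S-transferases took 0.293% against 0.196%, with 2 of 14 tested higher and 1 lower, Gstt1, with 10 against 22 UMIs. The 2 higher genes were the near-identical neighbours Gstp1 and Gstp2, at 118 and 168 UPM against 51.4 and 72.5 UPM. Reads that match both genes were ignored in the authors' counting, so both levels may be too low. In principal 9 the glutathione S-transferases took 0.272%, and against principal 9 alone 0 of 13 tested members were higher and 2 were lower. The shares of all genes tested against principal 9 were 14% higher and 1.59% lower. Of 13 tested genes of ion, water and acid-base transport, 1 was higher, Car2, a cytosolic carbonic anhydrase, with a ratio of 3.41. Among 20 tested transcription factors of duct and epithelium, 1 was higher, Hoxd9, with 21 against 11 UMIs, and 0 lower. Nutrient and osmolyte transport had 1 of 16 tested members higher, the polyamine regulator Oaz1, and 3 lower, the transporters Slc16a1, Slc2a1 and Slc3a2, with a median ratio of 0.674. Of 19 tested glutathione peroxidases and partners, 0 were called in either direction.

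Each neighbour differed from principal 8 to its own degree. Principal 8 had more UMIs than any of them, so that a gene passed the minimum of 20 UMIs more easily on its side. As deposited, 572 genes were higher and 65 lower than in principal 9 (14% and 1.59% of 4100 tested). Against principal 10 they were 905 and 254 of 4125 (21.9% and 6.16%), and against principal 11 they were 790 and 144 of 4102 (19.3% and 3.51%). After the UMIs were thinned to equal totals, a step chosen after seeing the data, 155 genes were higher and 107 lower than in principal 9, or 8.93% and 6.17% of 1735. Against principal 10, 551 and 310 of 2385 genes were higher and lower (23.1% and 13.0%), and against principal 11, 395 and 163 of 1770 (22.3% and 9.21%). At equal totals principal 9 was therefore the population with the smallest share of genes past 2-fold.

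In 1 random thinning of the 4 populations to equal totals, 17 of 1539 genes were at least 2 times the level of each of the 3 neighbours (1.1%). On all counts of the Cauda library 10 of the 17 were past 2-fold, Klk1b27, Wfdc13, Defb38, Defb37, Atp6v1g3, Hexim1, Cryba4, Map7d2, Hspa1b and Zfp36, and over all libraries also 10. The other 7, Ccdc107, Chchd5, Fam204a, Gm561, Isca1, Spata24 and Ubn1, were between 1.45-fold and 1.83-fold above their nearest neighbour on all counts of the Cauda library, so their place in the set rests on the draw. Hexim1, an inhibitor of the transcription elongation kinase, stood at 119 UPM in principal 8 and at 46.1, 17.6 and 31.4 UPM in principal 9, 10 and 11. In the same draw 7 genes were at most 0.5 times the level of each of the 3 (0.455%), and on all counts 3 of them were, Clu, Cyp4a12a and Ptgs2. The other 4, Dcn, Acsl4, Ptplb and Gadd45b, had ratios of 0.518 to 0.586 to their nearest neighbour on all counts. The names in both sets were listed after their values were seen.

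The gene with the highest ratio, Atp6v1g3, rested on few cells. It encodes a proton pump subunit that marks clear cells, and had 77 UMIs in principal 8 and 4 in the others, a ratio of 20.2 (7.58 to 76.0). The UMIs lay in 21 principal 8 cells, 57 of them in 5 cells and 21 in a single cell. Another clear cell marker had a UMI in 5 of the 21 cells and in 72 of the 465 principal 8 cells without Atp6v1g3. Leaving out the 28 principal 8 cells and 31 other cells with at least 3 UMIs of another cell type's markers reduced the ratio to 4.27. Atp6v1g3 is itself among those markers, so cells with at least 3 of its UMIs were left out by definition. Nothing about clear cells is therefore read from that fall. The 10 clear cell markers together took 0.0237% of the UMIs of principal 8 and 0.0103% of those of the others, a ratio of 2.30 (1.78 to 3.00). Atp6v1g3 gave 77 of the 193 UMIs of this list in principal 8 and 4 of its 88 in the others. The ratio of the list is thus not separate from that of Atp6v1g3. Basal cell markers took 0.00969% against 0.0181%, stromal markers 0.0184% against 0.0258% and muscle markers 0.0115% against 0.0102%. The part of such cells in the results was not tested. Endothelial markers had a UMI in 8 cells of principal 8, and immune markers in 4.

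Principal 8 was itself made of cells from separate clusters of the study's first round of clustering, which took in all cells before principal cells were clustered again. Of its 486 Cauda cells, 354 (72.8%) came from cluster 6, 117 (24.1%) from cluster 11, 14 from cluster 3 and 1 from cluster 2. The other cauda principal cells came almost all from cluster 11, with 376 of 407 (92.4%), and 371 of the 396 cells of cluster 6 over all libraries were principal 8. The median depth of principal 8 was 625 UMIs per cell in its cluster 6 cells and 948 in its cluster 11 cells. At equal totals, 105 of 1154 genes were higher in the cluster 11 cells of principal 8 than in its cluster 6 cells (9.1%) and 328 were lower (28.4%), with a median ratio of 0.703.

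First-round clustering had used these genes, so the following values describe the split. The cluster 11 cells of principal 8 held more of the secreted and surface products and fewer ribosomal transcripts. Crisp1 stood at 79222 UPM in the cluster 11 cells and 39585 UPM in the cluster 6 cells, B2m at 20256 against 6172 UPM, and Clu at 4128 against 981 UPM. Wfdc10 stood at 55710 against 18125 UPM. Ribosomal proteins took 10.3% of UMIs in the cluster 11 cells and 21.2% in the cluster 6 cells, and mitochondrial proteins 1.86% and 3.49%. Beta-defensins took 5.12% and 4.51%, and antigen presentation genes 2.21% and 0.731%. Wfdc13 was among the lower genes, at 39.6 UPM in the cluster 11 cells against 338 UPM in the cluster 6 cells.

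Restricting both sides to cluster 11 left 25 of 1000 genes higher in principal 8 than in the other cauda principal cells (2.5%) and 88 lower (8.8%), at equal totals. Klk1b27, with 15 UMIs against 24, kept a ratio of 2.87 (1.40 to 5.71), Spint3 of 2.43, Defb40 of 1.75 and the beta-defensin list of 1.45. Ptgs2 and Crisp1 stayed lower, at ratios of 0.199 and 0.505. By contrast, the ratios of Wfdc13 and Npy, with only 7 and 20 UMIs in principal 8, were 0.870 (0.327 to 1.98) and 0.760 (0.448 to 1.23), whose intervals span 1. B2m had a ratio of 1.07 (1.03 to 1.11), and ribosomal and mitochondrial lists had ratios of 0.997 and 0.918. Immediate-early and heat-shock genes had a ratio of 1.04, and WFDC genes of 2.24. Antigen presentation and serpin lists, which took smaller shares in principal 8 over all cells, had ratios of 1.07 (1.03 to 1.11) and 1.063 (1.004 to 1.125), Kazal and Kunitz inhibitors of 1.10 (1.08 to 1.12) and endoplasmic reticulum genes of 0.956 (0.924 to 0.989). The cluster 11 cells of principal 8 held 176593 UMIs.

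**Figure D4:**
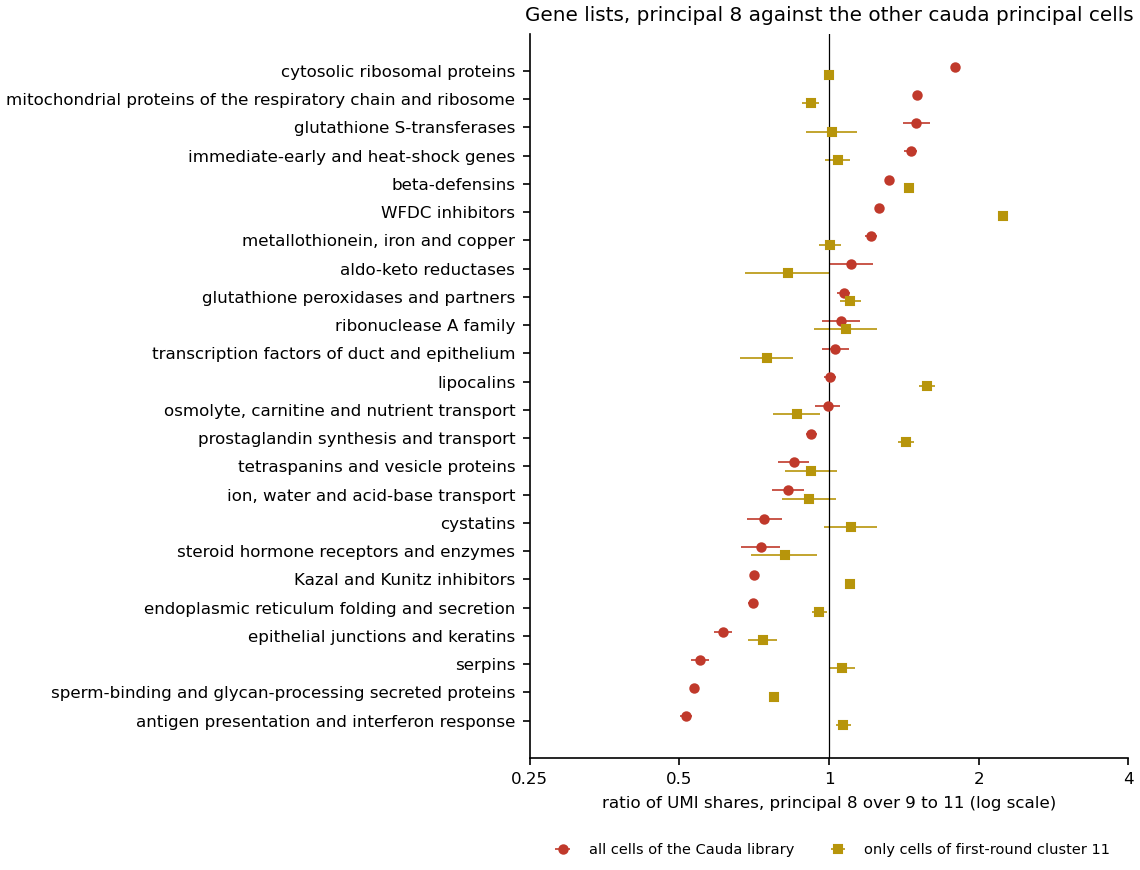
Ratio of the UMI share of each gene list in principal 8 to that in the pooled principal 9, 10 and 11 cells (x axis, log scale) over all cells of the Cauda library (red circles) and over the cells of first-round cluster 11 alone (yellow squares), with lines for 95% counting intervals. Ribosomal proteins lie at 1.80 over all cells and 0.997 within cluster 11, and beta-defensins at 1.32 and 1.45.

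**Figure D5:**
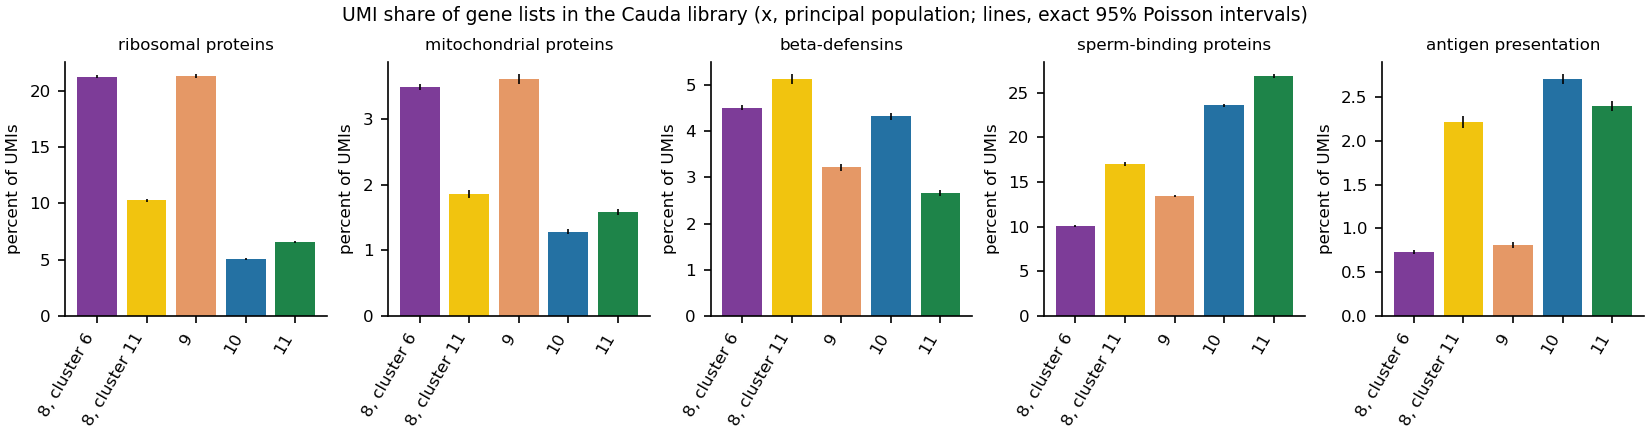
Percent of UMIs (y axes, from 0) taken by 5 gene lists in the cluster 6 and cluster 11 cells of principal 8 and in principal 9, 10 and 11 (x axes), all of the Cauda library, with lines for exact 95% Poisson intervals. The cluster 6 cells of principal 8 are near principal 9 for ribosomal proteins, at 21.2% and 21.3%, and for antigen presentation, at 0.731% and 0.816%.

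Cells of principal 8 were more uneven than a Poisson spread in almost all transcripts of high level. Among the 184 cells thinned to 1000 UMIs, 49.5% had no UMI of Clu where a Poisson spread about its mean gives 17.0%, and its variance was 9.87 times its mean. Of the 100 genes of highest level, 99 had an excess of cells without a UMI. The median excess was 19.0 percentage points and the highest, that of Clu, was 32.5. Principal 8 holds both cluster 6 and cluster 11 cells, between which Clu and Crisp1 differed, and the part of that mixture was not tested. Crisp1 had a variance of 22.4 times its mean, while that of Defb2 was 2.97. At this depth Clu was seen in 50.5% of the cells of principal 8 and 86.3% of the others, and Spint3 in 70.1% and 44.4%. Stromal cells had Clu in 2.16% and Spint3 in 0.433% of them. In basal cells the shares were 77.1% and 1.76%, and in clear cells 32.6% and 6.52%.

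The 22 principal 8 cells of the Corpus library, 10 from cluster 6 and 12 from cluster 3, held only 10787 UMIs. Npy stood in them at 3245 UPM (2260 to 4513) and Wfdc13 at 4079 UPM (2964 to 5476), against 437 and 289 UPM in the Cauda cells of principal 8 and 3132 and 3332 UPM in the principal 7 cells of the Corpus library. Defb2 had 0 UMIs in them, which allows a level of up to 278 UPM, against 11263 UPM in the Cauda cells and 710 UPM in the principal 7 cells of the Corpus library. Cd52 stood at 30778 UPM in the corpus cells. In these genes the 22 cells were closer to principal 7 than to the Cauda cells of the same name for Npy, Wfdc13 and Defb2, and library and position cannot be told apart. The 8 cells of the Vas library held 16643 UMIs, with Defb2 at 6730 UPM and Crisp1 at 69639 UPM.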

How the data were processed

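The authors sequenced 10x 3′ single-cell libraries, aligned reads with HISAT2 2.0.4 to mm10 (per the submitters' processing notes), counted UMIs per gene and cell, removed ambient RNA with a modified SoupX, and clustered all cells and then the principal cells again. The deposited values used here are the counts of UMIs per gene and cell after that removal (16892 genes), with the authors' cell annotation and first-round clusters. Reads mapping to several places were ignored in the authors' counting, so near-identical genes are uncertain.

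UMIs were summed over cells of a population within a library and given per 1000000, with exact Poisson intervals, exact conditional binomial intervals for ratios and Clopper-Pearson intervals for shares (confidence level 95%). A count of 0 was taken as allowing 3 UMIs. A gene was called at 20 UMIs in the higher group and 2-fold; the step was tested on simulated data. Thinning drew UMIs at random once, with a fixed seed. No test was made, because each region has 1 library and the populations were clustered on these counts. Doublets were called by a nearest-neighbour score against simulated pairs, and were kept. Promoters came from RefSeq tables on GRCm38.p6; motifs were searched as AGAACA or TGTTCT and TATAAA.

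The population and its 38 gene lists were chosen with earlier results of these data known. Genes named were the 3 markers, the 15 of highest level, the 15 of largest ratio each way against the pooled cells, the 5 largest each way against each neighbour, genes at least 2 times every other population, the 4 highest and all called members of each list, and the 10 most uneven genes; the rest were chosen after their values were seen. Some genes that this rule names are not reported here. Sums and intervals were made in Python 3.11.15 (scipy 1.17.1, numpy 2.4.6), tables with pandas 2.3.3, neighbours with scikit-learn 1.9.0 and plots with matplotlib 3.10.9.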

Additional observations from a re-analysis of the deposited data

How the results depend on the processing

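No paired analysis was possible because each region has 1 library and no test was run. Counts that moved by over 1.5 times are given first, with the genes higher before the genes lower. With a minimum of 10 UMIs, 500 and 390 genes were called against the pooled cells, and 147, 487 and 320 were lower than in principal 9, 10 and 11. With a minimum of 50 UMIs the counts were 100 and 63 against the pool, 156 and 28 against principal 9, 500 and 116 against principal 10, and 412 and 69 against principal 11. At 1.5-fold they were 913 and 615, 1151 and 225, 1487 and 572, and 1419 and 341 in the same order, with 8 genes above every other population. At 4-fold they were 6 and 12, 32 and 3, 186 and 9, and 47 and 10, with 0 above every other. Means over cells gave 454 and 400 against the pool and 868 higher than in principal 9. Thinning cells to 500 UMIs gave 128 and 69. Totals without the highest genes gave 90 and 387. Cells of cluster 11 alone, at equal totals, gave 25 and 88. Equal totals gave 155 and 107 against principal 9, 551 higher than in principal 10 and 395 higher than in principal 11. Cells of all 4 libraries gave 234 lower than in principal 11.

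The ratio of UMI shares of beta-defensins was 1.28 in cells with at least 1000 UMIs, 1.47 over all libraries, 1.44 as a mean over cells, 1.45 in cluster 11 and 1.38 without cells holding another type's markers. In the same order and settings where it moved, that of ribosomal proteins was 1.76, 1.64, 1.87, 0.997 and 1.77. For immediate-early and heat-shock genes it was 1.41 over all libraries, 1.41 as a mean over cells, 1.04 in cluster 11 and 1.40 without those cells. For mitochondrial proteins it was 1.30 over all libraries and 0.918 in cluster 11. Thinned to 500 UMIs, Gpx3 had a UMI in 77.6% of cells and Defb2 in 93.3%, and without thinning in 60.7% and 78.6%. At least 2 UMIs were found in 1.63% of cells for Klk1b27 and 88.0% for Gpx3.

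Within cluster 11, these ratios crossed 1, some within counting error: Npy 0.760, Acbd7 0.906, B2m 1.07, Bsph2 0.429, Car2 0.985, Dapl1 0.511, Gm17727 1.13, Mrpl41 0.862, Rpl36 0.917, Rps14 0.889, Rps28 0.897, Rps9 0.992, Snx14 1.01, Uqcr10 0.980 and Wfdc13 0.870. As means over cells, Mrps10 was at 0.653 and Odam at 0.744. The cause was not tested. Of 119 named genes past 2-fold, 115 stayed past it without called doublets, 110 in cells with at least 1000 UMIs, 102 without cells holding another type's markers, 96 as means over cells, 80 with totals without the highest genes, 78 over all 4 libraries and 44 in cluster 11.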
